A study of Mus musculus with 18 samples.

Results

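Long-term haematopoietic stem cells (LT-HSCs) held for 48 h in medium at pH 6.9 were compared with LT-HSCs held for 48 h in medium at pH 7.4, across all genes. The comparison takes 12 of the 18 libraries of the series, 6 at each pH, chosen by the pH and the culture time on their labels. The other 6 libraries, from fresh cells, appear only as a reference level. Every library was made from 100 LT-HSCs sorted from the bone marrow of mice aged 8 to 12 weeks, whose strain is given as B6.SJL in one label field and as wild-type C57 B6 in another. All 12 cultures shared IMDM with 10% fetal bovine serum, the cytokines SCF, thrombopoietin and G-CSF (50 ng/ml), 5% CO2 and 3% O2. The acidity of the medium is thus the labelled difference between the cultures. The libraries of the groups also differ in a sequencing index, described below. The design text names 6 individual mice, and each pH has mice numbered 1 to 6. The comparison by pH is given with all 12 libraries and with the 11 that had at least 10000 genes detected. Comparisons within index sets, introduced below, are from the 11, with values from all 12 where named.

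LT-HSCs are the rare marrow cells from which all blood lineages can be rebuilt, and most of them rest outside the cell cycle until cytokines or culture call them into division. Acid outside a cell is sensed by proton-sensing receptors and proton-activated channels, and acid inside it is exported by sodium-proton exchangers, monocarboxylate transporters and bicarbonate carriers. Polyamines, which the title of the series names, are small cations made from ornithine that support translation and growth.

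Total counts were 1640817 to 7508120 per library at pH 6.9 and 1923443 to 6957557 at pH 7.4. In pH 6.9 replicate 3, 8925 genes were detected and the 20 highest genes took 14.2% of the counts, against 11225 to 12792 genes in the other 11 libraries. That library lay at 248 on the first principal component of the 12 libraries, which held 60.2% of the variance, and the others lay between -42.9 and 3.98. Of 5 library measures (total, genes detected, share of the top 20 genes, ribosomal-protein share, haemoglobin share), 0 differed between the pH groups in exact two-sided permutation tests (smallest adjusted p = 0.368 with 12 libraries and 0.576 with 11; the smallest unadjusted p that either design allows is 0.00216). Several markers used to define stem cells were counted at both pH values, though not all of them in every library. In counts per 1000000 counts of the library (CPM), Kit stood at 15.8 to 196 at pH 6.9 and 79.9 to 156 at pH 7.4, and Ly6a, which encodes Sca-1, at 660 to 2000.5 and 107 to 1035. Mecom and Hlf, transcription factors of stem cells, were counted in every library, while Slamf1, the CD150 antigen, was low at 0 to 38.0 and 1.65 to 6.27 CPM. Fgd5 was at 0 to 15.5 and 0.155 to 5.50 CPM, with 0 in 2 pH 6.9 libraries. Cd48 and Flt3, markers of multipotent progenitors, were at 0 to 198 and 0 to 23.8 CPM at pH 6.9. At pH 7.4 they were at 0 to 152 and 11.6 to 50.1 CPM.

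The libraries of each pH also fall into sets by their first sequencing index, i7, which the labels give. At each pH the odd-numbered mice (1, 3, 5) share 1 i7 index and the even-numbered mice (2, 4, 6) another. On the first component of the 11 libraries (27.7% of the variance), the odd-numbered pH 6.9 libraries lay at 53.4 and 79.6 and the even-numbered ones between -32.6 and -21.2. The odd-numbered pH 7.4 libraries lay between -32.3 and -12.0 and the even-numbered ones between 1.34 and 7.45. The pH 6.9 libraries were therefore split by index on this axis, with the pH 7.4 libraries between them or beside the even-numbered set. Below, the pH groups are compared as 6 against 6, and then within each index pair. No i7 index occurs at both pH values. In both comparisons pH and the i7 index therefore differ together and cannot be told apart.

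**Figure D1:**
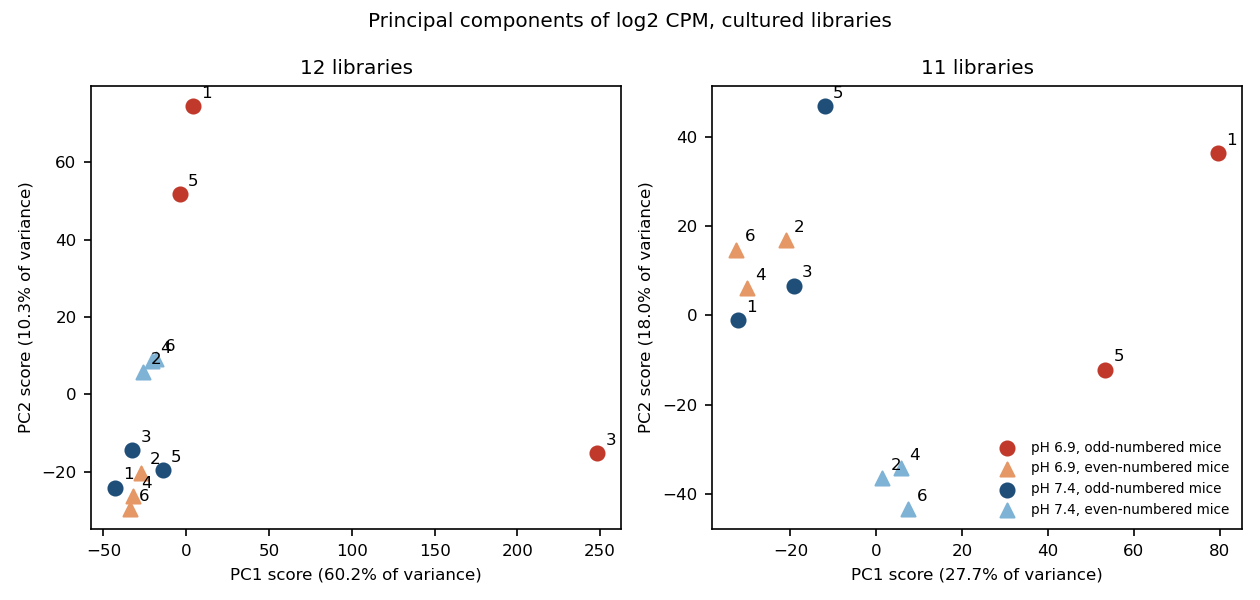
Principal components of log2 CPM for the 12 cultured libraries (left) and for the 11 with at least 10000 genes detected (right). Each point is a library, coloured by pH and shaped by odd or even mouse number, and the axes give component scores with their share of the variance. With 12 libraries pH 6.9 replicate 3 stands alone at 248, and with 11 the odd-numbered pH 6.9 libraries at 53.4 and 79.6 are apart from the rest.

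Taken as 6 libraries against 6, no gene passed the test, and the genes that came nearest were the surface protein Tm4sf1, the macrophage lysosomal protein Cd68 and the deubiquitinase Uchl1 on the higher side and the secretory cargo adaptor Sec24d and the cation transporter Slc22a3 on the lower side. edgeR's quasi-likelihood test called 0 of 9859 genes (0%), with 389 (3.95%) at an unadjusted p under 0.05, 271 higher and 118 lower at pH 6.9, and a smallest adjusted p of 0.896. Without pH 6.9 replicate 3 it called 0 of 10160 (0%), with 530 (5.22%) at an unadjusted p under 0.05, 252 higher and 278 lower, and a smallest adjusted p of 0.932. DESeq2 called 4 genes with 12 libraries, Tm4sf1, Plscr2, Uchl1 and Cd68, all higher, with 605 at an unadjusted p under 0.05. With 11 it called Tm4sf1, H2-Q6 and Cd68, higher, and Mpo, lower, with 622. Mpo was high only in even-numbered pH 7.4 mice, at 4193, 5354 and 19745 counts. It had 17, 29 and 10 counts in odd-numbered pH 7.4 mice and 2 to 34 in the pH 6.9 libraries used. limma-voom called 0 in either set, with 1686 at an unadjusted p under 0.05 in the 11 libraries. The 95% interval of the fold change lay inside a 2-fold change in either direction for 2771 of 9859 genes (28.1%) with 12 libraries and for 5905 of 10160 (58.1%) with 11, and the median standard error of the log2 fold change was 0.42 and 0.30.

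Tm4sf1, a tetraspanin-like membrane protein of the L6 family (chromosome 3, 57285611 to 57301988, GENCODE M21 on GRCm38, as for all gene positions here), stood at 204, 224 and 70.7 CPM in pH 6.9 mice 1, 3 and 5 and at 23.8, 13.3 and 13.0 in mice 2, 4 and 6. At pH 7.4 it was 10.8, 10.9 and 6.504 CPM in mice 1, 3 and 5, and in mice 2, 4 and 6 it was 6.69, 12.5 and 4.34. All 6 pH 6.9 libraries were above all 6 pH 7.4 libraries, with the odd-numbered ones highest and 2 even-numbered ones only just above the highest pH 7.4 value. The means were 91.5 ± 97.5 and 8.61 ± 3.20 CPM (SD, n = 6), and the log2 fold change was 3.44 ± 0.72 (SE) with 12 libraries and 2.89 ± 0.67 with 11 (edgeR, unadjusted p = 0.000215 and 0.000806). The 5 fresh libraries used held 7.25 to 71.5 CPM. Cd68 (chromosome 11, 69664213 to 69666153) stood at 205, 196 and 126 CPM in the odd-numbered and 44.2, 77.2 and 35.8 in the even-numbered pH 6.9 mice, against 15.2 to 51.5 at pH 7.4. The ranges overlapped through the even-numbered libraries, with a log2 fold change of 2.04 ± 0.46 (12 libraries) and 1.78 ± 0.42 (11). Uchl1 was at 31.5 to 40.8 CPM in the odd-numbered and 3.67 to 9.89 in the even-numbered pH 6.9 mice, against 1.34 to 5.67 at pH 7.4 (log2 fold change 2.80 ± 0.66 and 2.46 ± 0.62). Plscr2, a phospholipid scramblase, reached 1536 CPM in replicate 3 and 702 and 429 in the other odd-numbered libraries, against 39.3 to 84.8 in the even-numbered ones and 13.4 to 120 at pH 7.4.

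The other genes nearest to the threshold on the higher side were H2-Q6, H2-Q7, Lrmda, the lipid carrier Apoe, the histone gene H2ac18 and Mrtfb, a coactivator of serum response factor. Mrtfb stood at 11.9 to 23.8 CPM at pH 6.9 and 5.68 to 11.6 at pH 7.4, with no overlap and a log2 fold change of 1.20 ± 0.36 (12 libraries) and 1.21 (11). Its odd-numbered and even-numbered mice had log2 fold changes of 0.998 and 1.47. On the lower side Slc22a3, an organic cation transporter, stood at 2.495 to 13.2 CPM at pH 6.9 and 8.03 to 53.03 at pH 7.4, and Slc28a2, a concentrative nucleoside transporter, at 0 to 7.53 and 4.03 to 34.7. Slc28a2 had log2 fold changes of -2.19 in the odd-numbered and -2.26 in the even-numbered mice. Sec24d, which selects cargo for vesicles leaving the endoplasmic reticulum (ER), was at 0 to 10.2 CPM against 7.27 to 34.4, Clec12a, an inhibitory lectin of myeloid cells, at 4.76 to 12.5 against 6.27 to 89.3, and Slc7a11, the cystine importer, at 0.832 to 16.2 against 3.37 to 56.1. Abce1, which recycles ribosomes, was at 139 to 276 CPM against 248 to 438, and Edem1, a lectin of ER-associated degradation, at 32.4 to 86.2 against 79.0 to 157. Brd8, a subunit of the NuA4 acetyltransferase complex, was at 42.4 to 71.3 against 64.9 to 103. The log2 fold changes of these lower genes without replicate 3 ran from -0.64 for Abce1 to -2.14 for Slc28a2, and each kept its sign.

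Genes whose 6 pH 6.9 libraries lay wholly on one side of the 6 pH 7.4 libraries give a view that does not depend on the size of a change. There were 30 such genes of 9859 (0.304%), 8 higher (0.0811%) and 22 lower (0.223%) at pH 6.9, and with size factors of DESeq2 28 (0.284%). Random relabelling of 6 against 6 libraries would separate a gene in either direction with a probability of 0.0022, of the same order as this share. Without replicate 3, 51 genes were separate (0.517%), 19 higher (0.193%) and 32 lower (0.325%), and they hold the 30 by construction, since taking a library out cannot make groups overlap. Separation and a passed test are different things here: 2 of the 30, Tm4sf1 and Ndc1, were also called in the test over index pairs given below. The higher genes were Tm4sf1, Mrtfb, Tasor, Sp110, Arglu1, Oard1, Ginm1 and Ccdc17. Tasor, a subunit of the HUSH silencing complex, was narrow at pH 6.9, at 20.6 to 26.6 CPM, against 6.89 to 19.3. Sp110, an interferon-inducible nuclear body protein, stood at 127 to 194 against 96.1 to 122, and Arglu1, a splicing cofactor, at 49.2 to 66.5 against 29.1 to 47.9.

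Of the 22 lower genes, those of glycosylation, the secretory pathway and nuclear transport come first here, a grouping made after their values were seen. Stt3a and Rpn2, subunits of the oligosaccharyltransferase that attaches N-glycans, stood at 198 to 470 and 62.4 to 511 CPM at pH 6.9 and at 503 to 744 and 541 to 754 at pH 7.4. Serp1, a partner of the ER translocon, was at 199 to 372 against 374 to 592, Dolk, the dolichol kinase, at 0 to 18.1 against 22.2 to 32.1, and Gosr2, a Golgi SNARE protein, at 47.41 to 132 against 133 to 170. Ndc1, the membrane-spanning protein that anchors the nuclear pore (chromosome 4, 107367784 to 107416346), stood at 42.2, 67.4497, 25.8, 88.8, 79.9 and 83.7 CPM in pH 6.9 mice 1 to 6 and at 108, 171, 95.1, 161, 107 and 202 at pH 7.4. Its log2 fold change was -1.10 ± 0.32 with 12 libraries and -0.94 with 11. Ipo11, an importin, was at 86.8 to 131 CPM against 139 to 232. Dnmt3b, a de novo DNA methyltransferase, was at 0.832 to 35.5 against 39.8 to 69.4, with the lowest value in replicate 3 and 20.2 to 35.5 in the other pH 6.9 libraries. Pacc1, the proton-activated chloride channel, was at 16.6 to 43.1 CPM against 45.6 to 58.9 (log2 fold change -0.66 ± 0.27, edgeR unadjusted p = 0.0264). Isoc1 varied little within a group, at 176 to 203 CPM in all pH 6.9 libraries, replicate 3 included, against 244 to 337, and log2 fold changes of -0.55 and -0.57 in the index pairs.

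**Figure D2:**
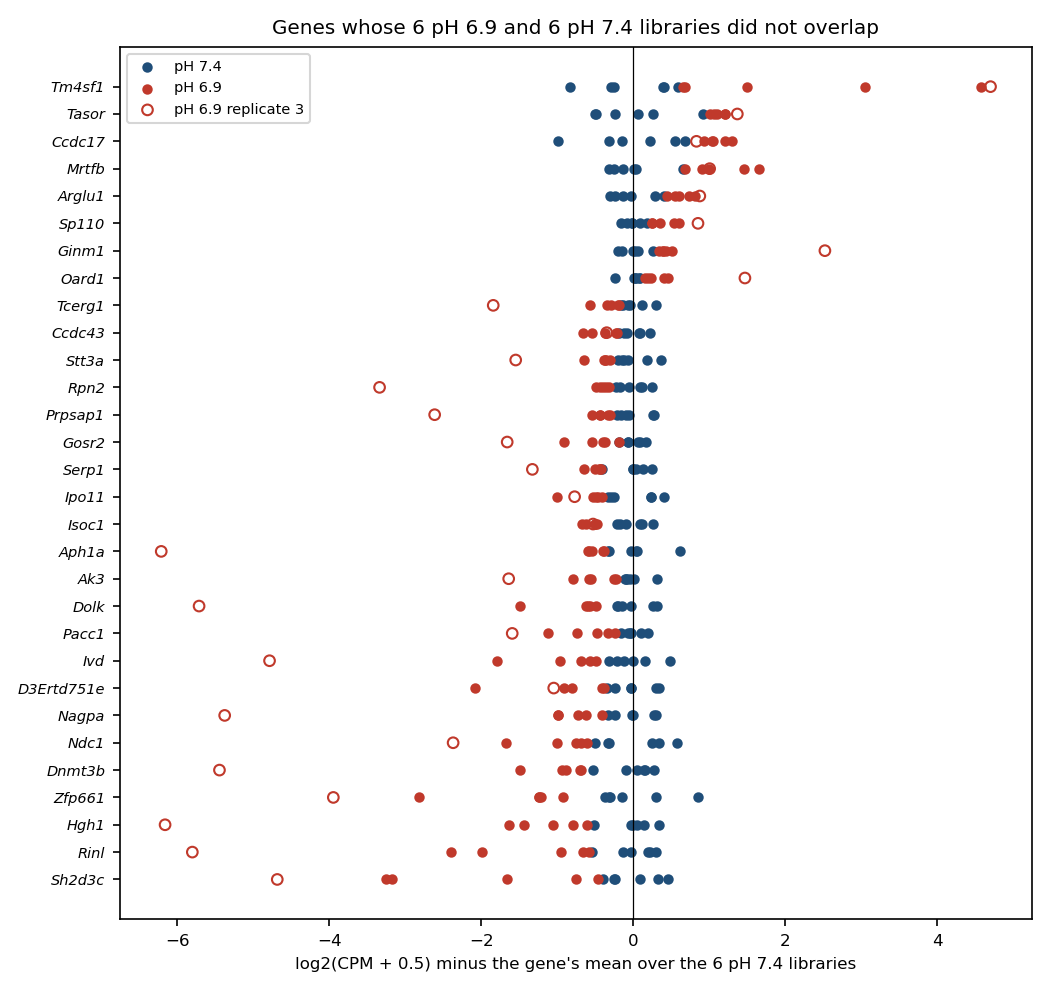
The 30 genes whose 6 pH 6.9 libraries and 6 pH 7.4 libraries did not overlap, 1 row per gene. The x axis is log2(CPM + 0.5) minus the mean of the pH 7.4 libraries, blue points are pH 7.4 libraries, filled red points pH 6.9 libraries and the open red circle is pH 6.9 replicate 3, which is far from the other pH 6.9 libraries in genes such as Aph1a, where it had 0 CPM, and close to them in Isoc1.

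The list tests that usually follow are replaced here by counts beside those over all genes. Of the lists used, 3 short ones were written after these values had been seen, so their counts describe and support nothing. Of 30 nuclear pore genes tested, 6 had a positive log2 fold change with 12 libraries (median -0.31) and 4 with 11 (median -0.19), where the median of all genes was -0.00 and 0.00. Of 33 genes of the oligosaccharyltransferase and the dolichol steps, 12 were positive with 12 libraries (median -0.22) and 13 with 11 (-0.09). Of 26 genes of the ER translocon and signal peptidase, 13 were positive with 12 libraries (median -0.04) and 9 with 11 (-0.12). Within the index pairs, 15 nuclear pore genes were positive in odd-numbered mice (median 0.02) and 1 in even-numbered mice (median -0.48). In the same order, the oligosaccharyltransferase list had 17 and 7 positive (0.11 and -0.27) and the translocon list 11 and 6 (-0.05 and -0.26). Over all genes the medians of the pairs were -0.07 and 0.06. Nup107 and Nup93, scaffold proteins of the pore, stood at 64.8 to 128 and 108 to 175 CPM at pH 6.9 against 122 to 192 and 140.4 to 283 at pH 7.4.

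Within the index pairs, pH 6.9 and pH 7.4 differed in many genes, mostly in opposite directions in the odd-numbered and the even-numbered mice. In the fit of the 11 libraries with 1 coefficient for each pH and i7 index, edgeR called 1200 of 11054 genes (10.9%) in odd-numbered mice, 566 higher (5.12%) and 634 lower (5.74%) at pH 6.9. In even-numbered mice it called 775 (7.01%), 315 higher (2.85%) and 460 lower (4.16%). Of the 330 genes called in both, 328 (2.97% of the genes tested) were higher in one pair and lower in the other, and only 2 (0.0181%) moved alike. The difference between the 2 effects passed in 1930 genes (17.5%), and 4102 genes (37.1%) had the same sign in both pairs, called or not. These values take the index and the label of each library as given, and whether any were exchanged was not tested. Across the 9859 genes, the mean profile of odd-numbered pH 7.4 mice, centred on all libraries, correlated at 0.451 with that of even-numbered pH 6.9 mice and at -0.705 with that of odd-numbered pH 6.9 mice (0.192 and -0.495 in the 11 libraries). The even-numbered pH 7.4 profile correlated at -0.408 with the odd-numbered and -0.125 with the even-numbered pH 6.9 profile (-0.133 and -0.465). These are descriptions across genes, and the centring touches all of them. Each profile carries an i7 index of its own, so none of the correlations is between sets that share one. With all 12 libraries the pairs gave 336 and 7 calls in place of 1200 and 775. Single libraries weighed on these counts. Dropping pH 7.4 replicate 1 gave 648 calls in odd-numbered mice, dropping pH 6.9 replicate 1 gave 554 and dropping its replicate 5 gave 620. In even-numbered mice, dropping replicate 2, 4 or 6 of pH 7.4 gave 419, 505 and 208 calls, and dropping replicate 4 or 6 of pH 6.9 gave 507 and 271.

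The crossing pattern is plain in single genes. Srm, spermidine synthase of the polyamine pathway, stood at 698, 645 and 740 CPM in odd-numbered pH 6.9 mice, and at 597, 687 and 792 in even-numbered pH 7.4 mice. It stood at 270, 179 and 183 CPM in even-numbered pH 6.9 mice and at 292, 261 and 251 in odd-numbered pH 7.4 mice. The 6 high libraries, 3 of each pH, and the 6 low ones did not overlap. Cdkn1a, the cell cycle inhibitor p21, had the reverse order, with 105, 142 and 77.6 CPM in odd-numbered pH 6.9 and 58.0, 73.1 and 56.3 in even-numbered pH 7.4 mice, against 210, 265 and 269 and 193, 382 and 220 in the remaining sets. Replicate 3 lay with the other odd-numbered pH 6.9 libraries in Srm and, less closely, in Cdkn1a.

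**Figure D3:**
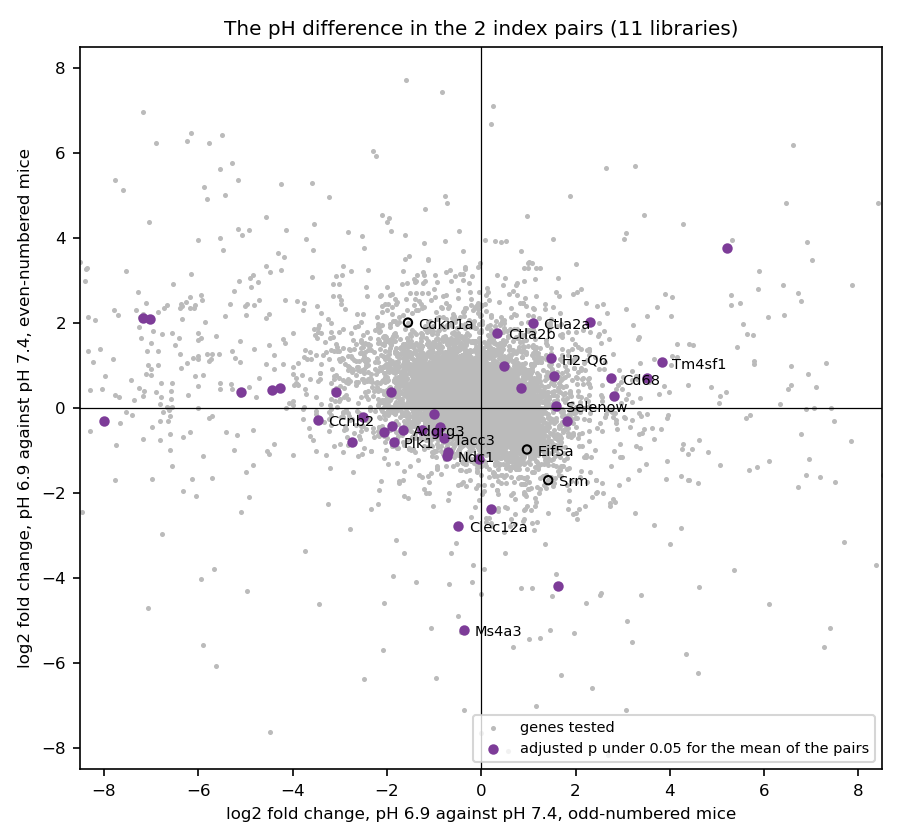
Log2 fold change of pH 6.9 against pH 7.4 in odd-numbered mice (x axis) and in even-numbered mice (y axis), 1 point per gene of 11054, from the 11 libraries, with 22 genes outside the axes. Purple points are the 43 genes called for the mean of the pairs, and the named open circles Srm, Eif5a and Cdkn1a lie in the quadrants of opposite sign.

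To look for genes that differed in the same way in both pairs, the mean of the 2 effects was tested, which weights the index pairs equally. As in the tests of each pair, the p-values measure spread among libraries within a set of pH and i7 index. They leave out variation between such sets, so the libraries of a set are not independent replicates of a pH. edgeR called 43 of 11054 genes (0.389%), 15 higher (0.136%) and 28 lower (0.253%) at pH 6.9, with 1488 (13.5%) at an unadjusted p under 0.05. Of the 43, 32 had the same sign in both pairs, 14 higher and 18 lower. The higher ones included Tm4sf1, Cd68 and genes of antigen presentation, and the lower ones Ccnb2 and other genes of mitosis. Among the 11 with opposite signs, 1 pair carried the mean, as for Lpcat2, a lysophospholipid acyltransferase, at 0 and 1.32 CPM in the odd-numbered pH 6.9 libraries used and 85.1 to 176 in the even-numbered ones. At pH 7.4 Lpcat2 was at 92.2 to 199 CPM in the odd-numbered and 24.5 to 33.0 in the even-numbered mice. The count of 43 rests on single libraries. In the fit of all 12 libraries it was 1, Wdfy1, named after its value was seen, which was lower and whose pairs differed (edgeR adjusted p = 0.000798 for the difference). Dropping replicate 2, 6 or 1 of pH 6.9 gave 6, 8 and 23 calls, and dropping replicate 2, 6 or 1 of pH 7.4 gave 8, 11 and 21. Dropping replicate 5 raised the count, to 162 for the pH 7.4 library and to 176 for the pH 6.9 one. Of the 25 genes named from this test, all 25 kept their sign in every refit. They were chosen for passing in this fit with the same sign in both pairs, so the unchanged sign is no separate support. Of the 25, 3 genes, Tm4sf1, Ccnb2 and Ms4a3, kept their call in all 11 refits without 1 library. None of the 25 was called with all 12 libraries. The calls in the paragraphs that follow are those of the 11 libraries.

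Class I genes of the major histocompatibility complex (MHC), whose products present peptides at the cell surface to T cells and natural killer cells, were among those that rose. H2-Q6, a non-classical class I gene (chromosome 17, 35424850 to 35430055), was 1 of the 2 genes called in the same direction in both pairs. It stood at 95.1 and 145 CPM in the odd-numbered and 81.8, 45.2 and 89.9 in the even-numbered pH 6.9 mice, against 28.7, 60.0 and 39.0 and 33.5, 37.6 and 26.7 at pH 7.4. Replicate 3 had 41.6, inside the pH 7.4 range. The log2 fold changes were 1.48 in the odd-numbered and 1.17 in the even-numbered mice (edgeR adjusted p = 0.0122 and 0.0343) and 1.33 ± 0.23 for their mean (0.0227; kept in 6 of 11 refits). With all 12 libraries the mean was 1.17 ± 0.32 (adjusted p = 0.456). H2-Q7, next to it on the chromosome, was at 211, 601 and 265 CPM in the odd-numbered and 114, 71.5 and 105 in the even-numbered pH 6.9 mice and at 46.6 to 128 at pH 7.4 (mean of the pairs 1.15 ± 0.21, adjusted p = 0.0303; 1.47 and 0.221 with all 12 libraries). H2-Q6 and H2-Q7 are near-identical copies whose reads could be shared between them by the counting, so their separate values are uncertain.

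Of 12 class I and peptide loading genes tested, 3 rose for the mean of the pairs, H2-Q7, H2-K1 and H2-T23, where 0.136% of all genes were called higher. Among the 12, 8 had a positive fold change with 12 and with 11 libraries, with medians of 0.39 and 0.27. H2-K1, a classical class I heavy chain, stood at 1531, 1008 and 1438 CPM in the odd-numbered and 1223, 756 and 873 in the even-numbered pH 6.9 mice, against 570 to 936 at pH 7.4, with a mean effect of 0.66 ± 0.14 (edgeR adjusted p = 0.0488) and of 0.60 (0.531) with all 12 libraries. H2-T23, which encodes Qa-1, stood at 144 to 260 CPM against 92.7 to 202 (0.73 ± 0.15, adjusted p = 0.0488; 0.70 and 0.484 with all 12 libraries), and was called in even-numbered mice (0.98, adjusted p = 0.00902), with 0.288 for the difference between the pairs. H2-D1 was nearly level, with a mean effect of 0.25 (adjusted p = 0.356), at 1242 to 1738 CPM against 1003 to 1678 apart from 176 in replicate 3. B2m, the shared light chain, reached 8195 CPM in replicate 3 and 1158 to 1682 in the other pH 6.9 libraries, against 885 to 1625. Tapbp and Tap2, which load and deliver peptides for class I, were called lower in odd-numbered mice, so the members did not all go one way. Of 37 interferon response genes, 27 were positive with 12 libraries and 30 with 11, each with a median of 0.30 and 0 called. The index pairs disagreed, with 17 of 41 positive in odd-numbered mice (median -0.19, 1 called higher). In even-numbered mice 32 of 41 were positive (median 0.55, 3 called higher). In MHC class II genes, 4 of 10 were called higher in odd-numbered mice (Cd74, H2-Aa, H2-Ab1, H2-Eb1) and 0 in even-numbered mice. The shares of all genes called higher were 5.12% and 2.85%. Cd74, the invariant chain, stood at 73.1, 74.9 and 105 CPM in the odd-numbered and 0.553, 3.11 and 0.551 in the even-numbered pH 6.9 mice, against 0 to 7.65 at pH 7.4.

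Reference sequence upstream of the class I genes is shown because these genes lie in 1 cluster and moved together in part. It runs 5′ to 3′ on the strand of the gene, from RefSeq on GRCm38.p6, and ends at the annotated start. Capitals mark the longest run of letters that the printed stretches of H2-K1, H2-D1 and H2-Q6 share, 21 bases that hold a κB-type element, a site known from class I promoters. The run begins 115, 175 and 177 bases before the start of these genes, and on either strand it was found in 4 of 32851 promoter windows of 250 bases (0.0122%). The windows searched include those of the genes that the run was taken from. Their matches were fixed in advance, and the share is no measure of how rare the run is. The stretch of H2-Q7 holds the first 14 of these bases in a row and then, after a single missing c, the rest of the run. It is left without capitals because the run is not whole.
H2-K1, chr17:34000348-34000497, minus strand: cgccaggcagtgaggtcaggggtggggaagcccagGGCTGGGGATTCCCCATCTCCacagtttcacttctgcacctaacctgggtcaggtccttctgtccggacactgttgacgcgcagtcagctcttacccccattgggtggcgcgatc
H2-D1, chr17:35262914-35263093, plus strand: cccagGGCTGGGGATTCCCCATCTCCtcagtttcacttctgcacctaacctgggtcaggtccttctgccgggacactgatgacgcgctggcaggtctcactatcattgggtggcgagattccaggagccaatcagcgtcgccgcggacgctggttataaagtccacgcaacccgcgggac
H2-Q6, chr17:35424670-35424849, plus strand: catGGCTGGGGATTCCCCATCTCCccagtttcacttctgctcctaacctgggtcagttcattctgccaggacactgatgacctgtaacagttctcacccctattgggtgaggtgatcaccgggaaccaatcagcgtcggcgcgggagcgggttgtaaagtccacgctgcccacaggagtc
H2-Q7, chr17:35438975-35439154, plus strand: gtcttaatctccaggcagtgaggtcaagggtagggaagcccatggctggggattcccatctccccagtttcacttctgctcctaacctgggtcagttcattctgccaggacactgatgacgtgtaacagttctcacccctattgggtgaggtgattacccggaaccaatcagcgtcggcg
H2-D1, whose mean effect did not pass, thus shares the run with H2-K1 and H2-Q6, which rose.

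Most genes of mitosis had negative fold changes at pH 6.9. Of 61 genes of G2/M and mitosis tested, 13 had a positive fold change with 12 libraries (median -0.53) and 7 with 11 (median -0.42). For the mean of the pairs 5 were positive (median -0.70) and 4 fell, Ccnb2, Cenpa, Plk1 and Tacc3. In odd-numbered mice 8 were positive (median -0.99) and 17 fell. In even-numbered mice 11 were positive (median -0.31) and 1 fell, Tacc3. With all 12 libraries 14 were positive for the mean of the pairs (median -0.62), with 0 called, and 18 in odd-numbered mice (median -0.89), with 5 called lower. Over all genes the medians were -0.00, 0.00, -0.02, -0.07 and 0.06 in the same order of fits. The shares of all genes called lower were 0.253% for the mean of the pairs, 5.74% in odd-numbered mice and 4.16% in even-numbered mice. With all 12 libraries 150 of 10606 genes were called lower in odd-numbered mice.

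Tacc3, which stabilises spindle microtubules (chromosome 5, 33658128 to 33678995), was the other gene called in the same direction in both pairs. It stood at 99.2 and 138 CPM in the odd-numbered and 197, 188 and 223 in the even-numbered pH 6.9 mice, against 249, 205 and 165 and 342, 272 and 397 at pH 7.4, and at 185 in replicate 3. The groups did not overlap within either pair of the 11 libraries, and its log2 fold changes were -0.79 and -0.71 (edgeR adjusted p = 0.0369 and 0.0406), with -0.75 ± 0.15 for the mean (0.0467; kept in 3 of 11 refits). Its mean with all 12 libraries was -0.62 (edgeR adjusted p = 0.572). Ccnb2, cyclin B2 (chromosome 9, 70407692 to 70421547), stood at 15.5, 162 and 48.8 CPM in odd-numbered pH 6.9 mice and 379.8, 332 and 275 in even-numbered ones, against 387, 418 and 329 and 366, 455 and 393 at pH 7.4. Nearly all of its difference lay in odd-numbered mice, at -3.46 (adjusted p = 0.000294) against -0.28 (0.612) in even-numbered ones, and the difference between the pairs passed (0.000201). All 12 libraries gave a mean effect of -1.29 (edgeR adjusted p = 0.531) and an odd-numbered effect of -2.32 (0.0516). Cenpa, the centromeric histone, stood at 7.73, 86.5 and 39.8 CPM in the odd-numbered and 171, 137 and 169 in the even-numbered pH 6.9 mice, against 159 to 203 and 247 to 310 at pH 7.4. Plk1, the kinase that drives mitotic entry, stood at 16.6, 3.33 and 35.2 CPM and 87.4, 97.2 and 74.2, against 52.0 to 123 and 121 to 171. Cenpa and Plk1 had mean effects of -1.78 ± 0.26 (edgeR adjusted p = 0.0198) and -1.33 ± 0.24 (0.0303), with -1.38 (0.484) and -1.56 (0.412) in all 12 libraries, and their even-numbered mice alone had -0.80 each (0.176 and 0.146). Cdkn3, a cyclin-dependent kinase phosphatase, had -2.50 in the odd-numbered and -0.20 in the even-numbered mice.

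S phase and the resting state were described by lists of their own. Of 54 DNA replication genes, 25 were positive with 12 libraries (median -0.09) and 15 with 11 (-0.16), with 0 called for the mean of the pairs. Cdc6 and Orc1, which license replication origins, stood at 22.5 to 85.8 and 11.6 to 45.8 CPM at pH 6.9 against 76.1 to 148 and 35.6 to 50.9 at pH 7.4, and Mcm2 at 6.65 to 225 against 191 to 363, with its lowest value in replicate 3. Ccnd1, a G1 cyclin, was at 25.0 to 99.5 against 31.0 to 64.1. Of 20 genes of quiescence and cell cycle inhibition, 17 were positive with 11 libraries (median 0.33), and 17 of 19 with 12 (0.18). These split by pair, with 4 of 22 positive in odd-numbered mice (median -0.63, 4 called lower) and 21 of 22 in even-numbered mice (median 1.15, 6 called higher). The shares over all genes were 5.74% called lower in odd-numbered mice and 2.85% called higher in even-numbered mice.

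Promoters of Ccnb2 and Cdkn3 are shown because CCAAT boxes are a known feature of genes expressed at G2/M. Capitals mark CCAAT or its complement ATTGG, in RefSeq sequence on GRCm38.p6 upstream of the start, 5′ to 3′ on the strand of the gene. Matches lay 87, 54 and 21 bases before the start in Ccnb2 and 149, 92 and 34 bases before it in Cdkn3.
Ccnb2, chr9:70421555-70421674, minus strand: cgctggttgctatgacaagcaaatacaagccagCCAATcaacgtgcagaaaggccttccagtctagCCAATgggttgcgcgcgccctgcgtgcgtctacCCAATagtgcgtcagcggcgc
Cdkn3, chr14:46760381-46760540, plus strand: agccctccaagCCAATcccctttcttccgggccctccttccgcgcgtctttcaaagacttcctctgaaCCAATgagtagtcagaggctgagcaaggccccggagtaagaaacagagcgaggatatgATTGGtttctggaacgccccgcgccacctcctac
A match on either strand was found in 11120 of 32851 windows of 250 bases (33.8%), and 3 or more matches in 917 (2.79%). At least 1 match was found in 36 of 51 G2/M genes with a promoter in the table (70.6%), counting any window of a gene. That share is per gene and the others are per window, so they are not like for like. H2-K1, H2-D1, H2-Q6 and H2-Q7 hold a match too, the nearest 16 bases before the start in H2-K1 and in H2-Q7.

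**Figure D4:**
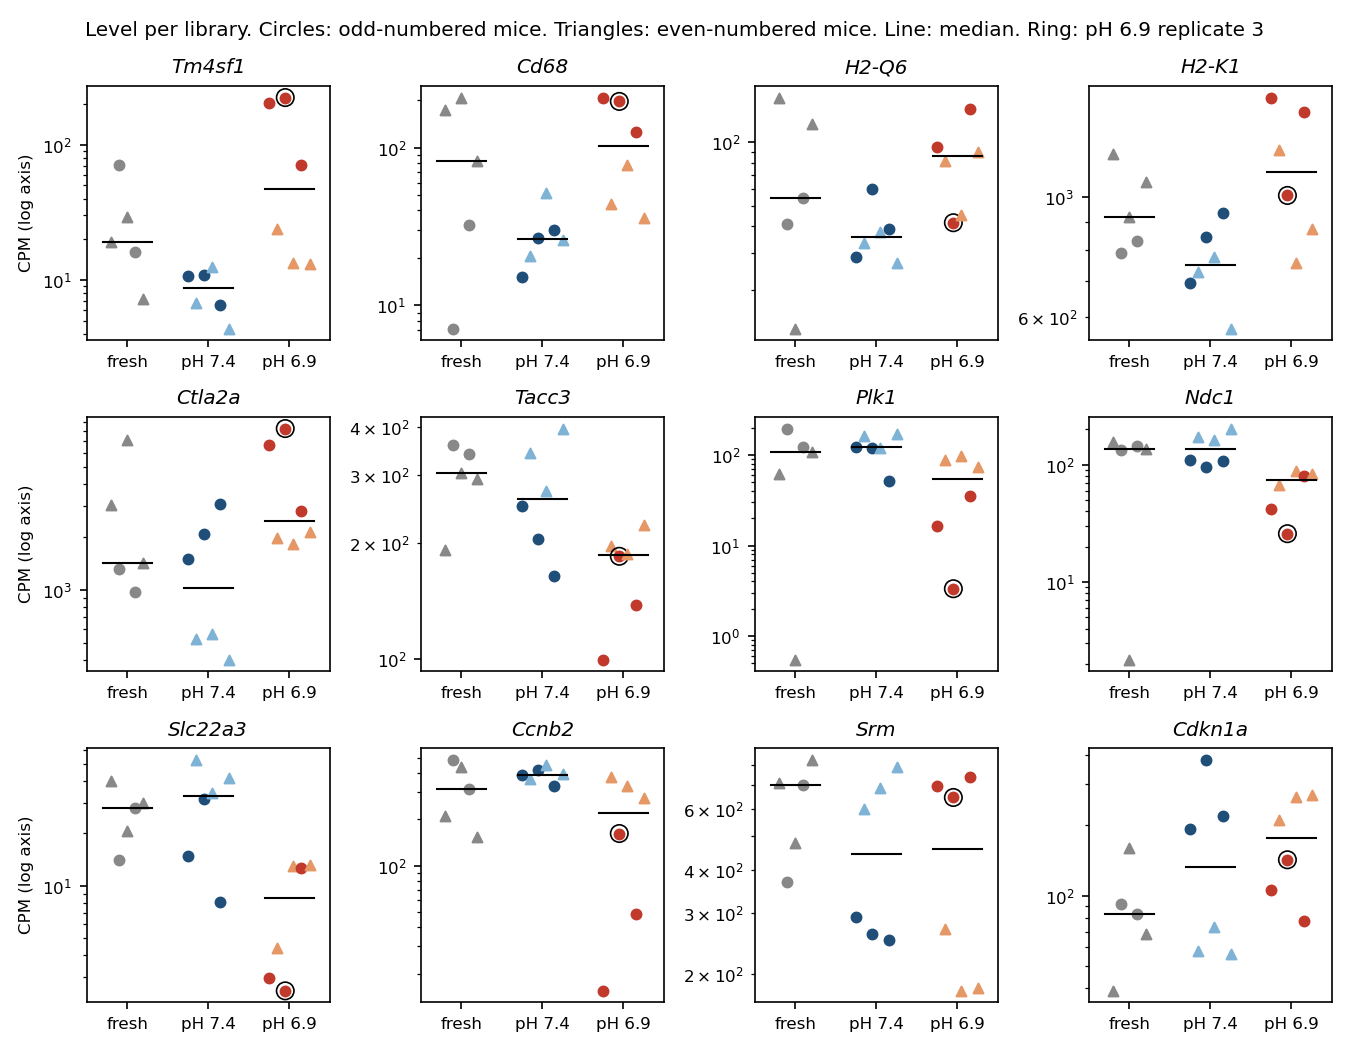
Level per library in CPM (log axis) of 12 genes in 5 fresh libraries, 6 at pH 7.4 and 6 at pH 6.9. Circles are odd-numbered and triangles even-numbered mice, the line is the group median, and the ring marks pH 6.9 replicate 3. Tm4sf1 is above every pH 7.4 library in all 6 pH 6.9 libraries, Ndc1 is below, and Srm and Cdkn1a are split by mouse number in opposite ways at the 2 pH values.

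Other genes that rose in the mean of the pairs included Ctla2a and Ctla2b, inhibitors related to the propeptide of cathepsin L, Selenow, a selenoprotein, Slfn2, Npdc1, Bmp4 and H2ac18. Ctla2a stood at 6654, 8224 and 2782 CPM in the odd-numbered and 1979, 1829.6 and 2127 in the even-numbered pH 6.9 mice, against 1489.8, 2059.7 and 3074 and 527, 563 and 400.1 at pH 7.4. The even-numbered libraries did not overlap and the odd-numbered ones did, with log2 fold changes of 2.01 (edgeR adjusted p = 0.00303) and 1.09 (0.0529) and a mean of 1.55 ± 0.22 (0.0198), with 1.74 (0.0591) in all 12 libraries. Ctla2b had 1.05 ± 0.18, and since the 2 genes are close copies the split of reads between them is uncertain. Selenow was called through the odd-numbered mice, with 382, 316 and 261 CPM against 90.5, 127 and 103, while in even-numbered mice it was 104 to 137 against 116 to 127. Bmp4, a secreted growth factor, is listed at 0 counts in all 3 odd-numbered pH 7.4 libraries and stood at 80.8, 19.1 and 15.6 CPM in the odd-numbered pH 6.9 ones.

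Among the genes that fell, Adgrg3, an adhesion receptor, stood at 38.6, 4.99 and 45.4 CPM in the odd-numbered and 86.8, 71.5 and 114 in the even-numbered pH 6.9 mice, against 105 to 154 and 102 to 160 (mean effect -1.09 ± 0.18, edgeR adjusted p = 0.0198; -1.32 and 0.484 with all 12 libraries). Ptpn7, a phosphatase of blood cells, Piga, which starts the anchors of GPI-linked proteins, and Ptgr1, a prostaglandin reductase, had mean effects of -0.88, -1.16 and -1.31, each more negative in odd-numbered mice. Ndc1 fell by 0.93 on the log2 scale (adjusted p = 0.0284) and Nup54 by 0.87 (0.0476), the 2 called of 30 nuclear pore genes, a list written after Ndc1 had been seen, where 0.253% of all genes were called lower. They had -1.08 (0.316) and -0.66 (0.601) with all 12 libraries. Tram1 and Spcs3, of the ER translocon and the signal peptidase, fell by 0.57 and 0.76 (adjusted p = 0.0431 and 0.0467), against -0.58 and -0.93 with all 12 libraries (0.453 and 0.490). Hspa5, the main ER chaperone, had -0.69 (adjusted p = 0.0597; -0.013 with all 12 libraries) and stood at 513 to 925 CPM in the pH 6.9 libraries other than replicate 3, where it was 3251, against 872 to 1279.8 at pH 7.4. In 22 ER stress chaperones, 3 were positive with 11 libraries (median -0.26) and 8 with 12 (median -0.14). Polr2b, an RNA polymerase II subunit, and Me2, a mitochondrial malic enzyme, fell by 0.66 and 0.62 (adjusted p = 0.0467 and 0.0493), against -0.14 and -0.66 with all 12 libraries (0.901 and 0.453). Polr2b was at 112 to 174 CPM in 5 pH 6.9 libraries against 195 to 281, with 546 in replicate 3. Cep72, a centrosomal protein, is listed at 0 counts in all 3 odd-numbered pH 6.9 libraries and stood at 6.08 to 13.9 CPM in the even-numbered ones, against 4.21 to 15.4 at pH 7.4.

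Lists of the growth machinery had medians of opposite sign in the index pairs. Over all genes the medians were -0.07 for the odd-numbered mice and 0.06 for the even-numbered ones, with 5.12% called higher in the first and 4.16% called lower in the second. Of 79 cytosolic ribosomal protein genes, 78 were positive in odd-numbered mice (median 0.89, 34 called higher) and 6 in even-numbered mice (median -0.42, 9 called lower). Ribosome biogenesis genes had medians of 0.66 and -0.77, with 22 of 60 called higher in the odd-numbered and 29 called lower in the even-numbered mice. Heat shock chaperones had 12 of 24 called higher (median 0.62) and 17 called lower (median -0.70), and the proteasome 22 of 40 higher (0.65) and 8 lower (-0.50). Mitochondrial ribosomal proteins had 29 of 76 higher (0.69) and 16 lower (-0.50), and nuclear-encoded respiratory chain genes 15 of 75 higher with 1 lower (0.65) and 10 lower (-0.35). In the fit of all 12 libraries the odd-numbered medians of these 6 lists ran from 0.73 to 1.32 and the even-numbered ones from -0.75 to -0.33, with 3 to 14 members called higher in the first and 0 called in the second. In the comparison by pH with 12 libraries these lists had positive medians. Without replicate 3, heat shock chaperones went from 0.12 to -0.14 and ribosome biogenesis from 0.09 to -0.07. The proteasome went from 0.58 to 0.08, mitochondrial ribosomal proteins from 0.48 to 0.05, the respiratory chain from 0.47 to 0.14 and cytosolic ribosomal proteins from 0.38 to 0.23. In all, 20 of 40 lists had a positive median with 12 libraries and 18 with 11, and 10 changed sign between them.

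**Figure D5:**
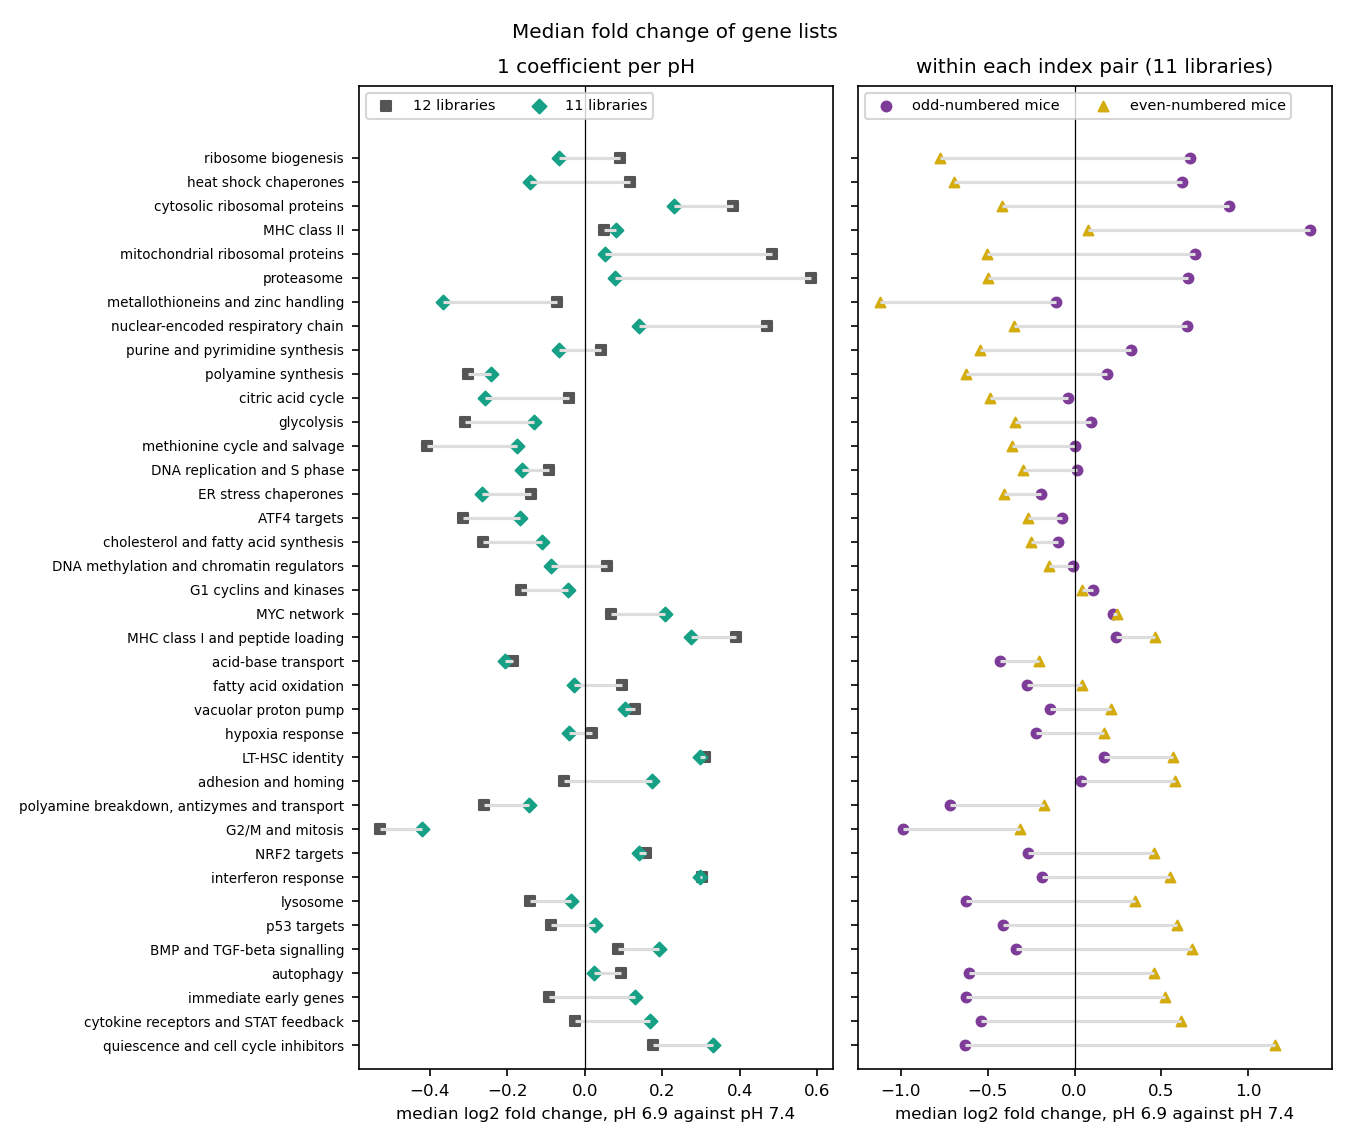
Median log2 fold change of pH 6.9 against pH 7.4 for pathway lists with at least 5 tested members. The left panel shows the comparison by pH with 12 libraries (squares) and 11 (diamonds), and the right panel the odd-numbered (circles) and even-numbered (triangles) mice of the 11 libraries, ordered by the gap between them. Ribosome biogenesis (0.66 and -0.77) and quiescence genes (-0.63 and 1.15) are at the ends of that order among the pathway lists, the only ones drawn. The G2/M list is negative in all 4 columns, as are others such as acid-base transport and ER stress chaperones.

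Genes of acid handling and polyamines were tested as lists of their own. Of 16 acid-base transport genes tested with 12 libraries, 4 were positive (median -0.19), and of 17 with 11, 5 (median -0.21), with 0 called. For the mean of the pairs 1 of 18 fell, the voltage-gated proton channel Hvcn1, where 0.253% of all genes were called lower. Hvcn1 stood at 0.594, 0 and 1.46 CPM in the odd-numbered and 49.8, 24.0 and 18.5 in the even-numbered pH 6.9 mice, against 18.8 to 37.5 at pH 7.4, so that its fall of 2.01 (edgeR adjusted p = 0.0243) came from odd-numbered mice (-4.45) and not from even-numbered ones (0.43). Slc16a1, a lactate and proton carrier, and Car2, a carbonic anhydrase, were each called lower in 1 pair, Slc16a1 in even-numbered mice (-1.92, adjusted p = 0.0012) and Car2 in odd-numbered mice (-1.32, 0.0225). The difference between the pairs passed for both, with adjusted p = 0.00165 for Slc16a1 and 0.0154 for Car2. The fit of all 12 libraries gave Slc16a1 in even-numbered mice -1.89 (adjusted p = 0.147), Car2 in odd-numbered mice -0.99 (0.130) and Hvcn1 for the mean -2.16 (0.186). Of the proton sensors, Gpr65 stood at 8.91 to 24.0 CPM at pH 6.9 and 0.765 to 46.3 at pH 7.4, and the ranges overlapped. Of 7 polyamine synthesis genes tested, 2 were positive with 12 libraries (median -0.30) and 1 with 11 (median -0.24), with 0 called. Within the index pairs 2 of 7 rose in odd-numbered mice (median 0.19) and 2 of 7 fell in even-numbered mice (median -0.62), where all 12 libraries gave 1 and 1. Of 4 eIF5A and hypusination genes, 1 rose in the odd-numbered pair and 1 fell in the even-numbered one. Beside these counts, 5.12% of all genes were called higher in odd-numbered mice and 4.16% lower in even-numbered mice. Sms, spermine synthase, was at 33.9 to 67.6 CPM against 31.8 to 77.8, and Dohh, which completes hypusine on eIF5A, at 4.99 to 59.0 against 43.6 to 56.6.

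Of the genes of stem cell identity none passed over pH or for the mean of the pairs. Of 44 tested with 12 libraries, 28 were positive (median 0.31), and of 45 with 11, 34 (median 0.30). Procr, the endothelial protein C receptor used to sort LT-HSCs, was at 49.3, 36.6 and 22.2 CPM in the odd-numbered and 19.4, 31.7 and 7.34 in the even-numbered pH 6.9 mice, against 17.9, 15.8 and 16.1 and 7.43, 12.5 and 4.65. Its log2 fold changes in the pairs were 1.08 and 1.26, and their mean did not pass (edgeR adjusted p = 0.197). Mllt3, a chromatin reader that maintains stem cells, had 0.72 and 0.77, at 12.8 to 49.1 against 8.24 to 17.3 CPM. Id1, an inhibitor of differentiation factors, had 0.66 and 0.67, at 101 to 190.2 against 42.6 to 140.4 CPM. Ly6a was called in even-numbered mice, at 750, 1006 and 876 CPM against 164, 324 and 107 (2.16, edgeR adjusted p = 0.0135; 0.169 with all 12 libraries), and had -0.02 in odd-numbered mice, with 0.0360 for the difference.

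Genes of differentiating myeloid cells were uneven between libraries. Ms4a3, a membrane protein of granulocyte-monocyte progenitors, stood at 224, 165 and 403 CPM in even-numbered pH 7.4 mice and at 14.4, 3.68 and 5.14 in even-numbered pH 6.9 mice. In odd-numbered mice it was at 2.30 to 5.80 CPM at pH 7.4 and at 3.57 in replicates 1 and 5 of pH 6.9, with 368 in replicate 3. Its fall for the mean of the pairs, 2.79 (edgeR adjusted p = 0.00995), therefore rests on even-numbered mice (-5.23, adjusted p = 9.47e-05) and became -0.15 with all 12 libraries. The summed level of 16 neutrophil granule genes ran from 32.5 to 160.4 CPM in the 5 pH 6.9 libraries, 1266 in replicate 3, and from 42.1 to 4997 at pH 7.4, with Ly6g, Chil3 and Fcnb at 0 in all 12. The summed 16 monocyte and macrophage genes, among them Cd68, ran from 405 to 587 CPM in the 5 pH 6.9 libraries, 705 in replicate 3, and from 271 to 475 at pH 7.4, with C1qb at 0. The summed 17 epithelial and keratinocyte genes, among them Tm4sf1, ran from 114 to 816 CPM in the 5 pH 6.9 libraries, 1116 in replicate 3, and from 41.6 to 146 at pH 7.4, with Krt5, Krt14, Krt19 and Sprr2d at 0. Sprr2a1 of that list was at 348, 439 and 95.8 CPM in odd-numbered pH 6.9 libraries and at 0 to 1.98 in the other 9. Tm4sf1, Cd68 and Ms4a3 are members of these sums. Without Tm4sf1 the epithelial sum was 101 to 612 CPM in the 5 pH 6.9 libraries, 893 in replicate 3 and 37.2 to 135 at pH 7.4. Without Cd68 the monocyte sum was 307 to 392.05, 508 and 255 to 442 CPM, so its ranges overlapped, and without Ms4a3 the neutrophil sum was 27.3 to 157, 898 and 37.2 to 4595. The part of other cells in the results for Tm4sf1, Cd68 and Ms4a3 was not tested. In a bulk library, fewer cells of a type and less RNA per cell cannot be told apart.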

How the data were processed

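The labels' protocols describe SMART-Seq v4 amplification of RNA from 100 sorted cells and Nextera XT libraries, read as 75 bp paired ends. This chemistry keeps no strand, so antisense reads cannot be told apart. The submitters' processing notes name kallisto and mm10, without a version. The authors deposited estimated counts per gene symbol for 21003 symbols as whole numbers, by a summing step the labels do not describe. Amplification was without molecular identifiers, so the size of a count in a single library does not give its precision. The standard errors and p-values here include the spread between libraries.

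The 12 libraries held 1640817 to 7508120 counts. Genes that passed filterByExpr were tested in edgeR 4.0.16 (R 4.3.3) with TMM factors and robust quasi-likelihood, with 1 coefficient per pH over 12 libraries and over the 11 with at least 10000 genes detected. A second fit of those 11 had 1 coefficient per pH and i7 index. It gave each index pair, their mean and their difference. Adjusted p-values are Benjamini-Hochberg over all genes, called under 0.05. DESeq2 1.42.0, limma 3.58.1 (voom with quality weights), size factors, filters, blocks and leaving out each library were alternatives. CPM use TMM over the 12 libraries and 5 fresh ones, leaving out fresh replicate 1 with 6311 counts. Mitochondrial-genome genes were not analysed here, and a few genes that the lists or the naming rule hold are not reported here.

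Genes were named by rule. From the 12 libraries it takes the 10 smallest unadjusted p per direction with a group mean of at least 10 CPM and the same direction in 5 of 6 mice. From the mean of the pairs it takes up to 12 of the largest called folds per direction with the same sign in both pairs. It adds genes called alike in both pairs, up to 3 members per list, and a fixed set. Genes outside it, such as the separated genes, were chosen after their values were seen. Members and lists (40 lists of 1164 entries, 1156 of them in the table, and 16 marker lists) were chosen with earlier results of these data known.

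The design names 6 mice, and whether a number marks the same mouse at each pH was checked. Profiles sharing a number correlated at -0.199 to -0.008 across genes with 12 libraries and at -0.220 to 0.027 with 11. These profiles were centred on each pH and still hold the differences between odd-numbered and even-numbered sets. The check therefore cannot decide whether a number marks the same mouse. In the main fits the numbers were not taken as pairs, and the direction in 5 of 6 mice served only to name genes.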

Additional observations from a re-analysis of the deposited data

Results flagged for a closer look

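A library was singled out where its gap to the next one took up more of its group's range than Dixon's 95% value allows. Chance does this in about 1 in 20 groups, and it happened for 15 of 106 sets of 6 values over 53 named genes, 5 of them in pH 6.9 replicate 3. In that library the high values were H2-Q7 at 601 CPM, H2ac18 at 175, Ms4a3 at 368, Mpo at 75.7 and Lyz2 at 454. It also stood apart in genes detected (8925) and in the share of the 20 highest genes (14.2%). In pH 6.9 replicate 1 Bmp4 was at 80.8 CPM and Slamf1 at 38.0. At pH 7.4, replicate 1 stood out in Mrtfb (11.6 CPM), replicate 3 in H2-Q6 (60.0), replicate 4 in Bmp4 (1.65) and Slamf1 (1.65), replicate 5 in H2-Q7 (128), Apoe (19.5) and Sat1 (308), and replicate 6 in Mpo (3062).

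The log2 fold change of pH 6.9 against pH 7.4 differed between odd-numbered and even-numbered mice in 1930 genes by edgeR's test of the difference, and in 25 of the 53 named genes. The odd-numbered minus the even-numbered effect was positive for the polyamine and translation genes Srm (3.12), Odc1 (1.55) and Eif5a (1.94), for Slc16a1 (2.25), and for the myeloid genes Mpo (8.64), Ms4a3 (4.87) and Clec12a (2.30). It was also positive for Tm4sf1 (2.76), Cd68 (2.06), Npdc1 (2.81), Slfn2 (2.54), Selenow (1.53) and Bmp4 (9.16, a fitted value where 1 set is at 0). It was negative for the mitotic genes Ccnb2 (-3.18), Cenpa (-1.95) and Cdkn3 (-2.30), for Cdkn1a (-3.57), Txnip (-2.41), Sat1 (-1.84) and Smox (-2.14), and for Ptgr1 (-1.49), Ctla2b (-1.42), Piga (-1.47), Adgrg3 (-1.16) and Cep72 (-7.71, fitted, with 1 set at 0). The index within each pair differs with pH, and they cannot be told apart.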

How the results depend on the processing

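The 12-library comparison gave 0 calls with other scaling, filters, limma-voom, all 18 libraries or the mouse parity as a term, and 0 in each refit without 1 library (lowest and highest 0). DESeq2 gave 4 with 12 and 4 with 11 libraries. With the mouse number as a replicate block edgeR again called 0, with 198 genes at an unadjusted p under 0.05 with 12 libraries and 451 with 11, and 0 of the mouse numbers correlated best with its own partner. For the mean of the index pairs, the 43 calls became 1 with all 12 libraries, 211 without a filter and 261 with DESeq2, and 6 to 176 in refits without 1 library. Under the pairing block by mouse it gave 35 calls and under the i5 block 60. The odd-numbered count of 1200 became 336 with all 12 libraries and 770 with the block, and 554 to 1497 without 1 library. The even-numbered count of 775 became 7 with all 12 and 208 to 1079 without 1 library. The refits without pH 6.9 replicate 1 or 5 leave their index set with 1 library, which is then assumed to vary like the others. Among the 25 genes named from the mean of the pairs no sign changed, which their selection by sign favours. All 25 lost their call with all 12 libraries. Among genes named as a fixed set, none called over pH, the log2 fold change was 0.13 for Odc1 and 0.42 for Lyz2. That of Odc1 became -0.43 with limma-voom, -0.13 with the block without the low library and -0.45 with limma-voom without it, and that of Lyz2 -0.037, -0.047 and -0.050. In the refits without 1 library, the lowest and highest log2 fold changes were -0.020 and 0.25 for Odc1, -0.23 and 0.15 for Srm (-0.048 with 12 libraries), -0.032 and 0.58 for Cdkn1a (0.15), -0.12 and 1.23 for Slamf1 (1.02) and -0.012 and 0.50 for Txnip (0.25). The cause was not tested. Depth limits low genes: 3 counts are 0.397 to 2.495 TMM-scaled CPM, highest in pH 6.9 replicate 3.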
